A study of Mus musculus with 6 samples.

Results

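The insulin-like growth factor (IGF) family was described here through 10 genes chosen by name: the ligands Igf1 and Igf2, the receptors Igf1r and Igf2r, and the binding proteins Igfbp2, Igfbp3, Igfbp4, Igfbp5, Igfbp6 and Igfbp7. The deposited table held 30055 gene symbols, of which 15035 passed a filter on low counts and were tested, and all 10 genes were among them. RNA was sequenced from cultured lung endothelial cells of 3-week-old female C57BL6 mice that lack Ch25h, the enzyme that makes the oxysterol 25-hydroxycholesterol. Every group carried this deletion. The cells received tumour extracellular vesicles (TEVs), which are membrane particles shed by MC38 mouse colorectal tumour cells, at 20 ug/ml for 12 hours after reserpine, an inhibitor of vesicular monoamine transport, at 10 uM for 8 hours (TEV plus reserpine). They received the same TEVs alone (TEV), or vehicle alone (vehicle, PBS in the series text). Each group had 2 libraries. The design text can also be read as giving reserpine to all cells, whereas the sample labels name it for only 1 group, and the labels were followed. The labels do not say whether the libraries of a group came from separate cultures or animals, so p-values measure the spread between these libraries, which may be technical. No group had reserpine without TEVs under that reading, so an effect of reserpine on untreated cells was not measured.

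IGF1 and IGF2 are secreted peptides that bind the receptor tyrosine kinase IGF1R, which signals through insulin receptor substrates to PI3 kinase, AKT and the MAP kinases. IGF2R has no kinase: it carries IGF2, and lysosomal enzymes tagged with mannose 6-phosphate, to endosomes and lysosomes, and so removes IGF2 from outside the cell. The binding proteins hold the ligands in blood, in the matrix or at the cell surface, and proteases that cleave them set the ligands free. Endothelial cells of many tissues make IGFBP3, IGFBP4, IGFBP5 and IGFBP7, the last of which binds IGFs weakly and is deposited in vessel basement membrane.

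Igfbp3, Igfbp4, Igfbp5 and Igfbp7 were the abundant binding-protein genes and each had its own order of the 3 groups, so the 250 bases upstream of their starts are shown. The sequences are RefSeq promoters of build GRCm38.p6, printed 5′ to 3′ on the gene's own strand, with motif matches in capitals. They lie at chr11:7213924-7214173 on the minus strand (Igfbp3), chr11:99040994-99041243 on the plus strand (Igfbp4), chr1:72874866-72875115 on the minus strand (Igfbp5) and chr5:77408046-77408295 on the minus strand (Igfbp7).
Igfbp3: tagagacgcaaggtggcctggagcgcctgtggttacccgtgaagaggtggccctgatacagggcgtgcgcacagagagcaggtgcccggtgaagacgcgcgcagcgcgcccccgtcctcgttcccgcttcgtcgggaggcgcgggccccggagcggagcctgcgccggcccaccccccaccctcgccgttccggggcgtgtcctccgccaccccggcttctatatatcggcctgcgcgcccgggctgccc
Igfbp4: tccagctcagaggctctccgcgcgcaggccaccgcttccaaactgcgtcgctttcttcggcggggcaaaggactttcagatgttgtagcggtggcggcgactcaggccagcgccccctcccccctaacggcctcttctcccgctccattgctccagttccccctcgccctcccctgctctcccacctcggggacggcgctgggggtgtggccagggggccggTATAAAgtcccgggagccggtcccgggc
Igfbp5: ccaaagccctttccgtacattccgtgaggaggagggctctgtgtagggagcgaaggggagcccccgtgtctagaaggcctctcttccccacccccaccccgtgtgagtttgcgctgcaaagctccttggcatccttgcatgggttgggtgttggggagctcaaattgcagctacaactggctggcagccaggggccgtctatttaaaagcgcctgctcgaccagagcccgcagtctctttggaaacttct
Igfbp7: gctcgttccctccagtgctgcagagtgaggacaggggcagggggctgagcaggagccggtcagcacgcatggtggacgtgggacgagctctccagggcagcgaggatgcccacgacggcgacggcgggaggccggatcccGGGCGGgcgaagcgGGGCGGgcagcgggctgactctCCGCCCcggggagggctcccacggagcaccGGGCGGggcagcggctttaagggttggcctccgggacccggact
Every motif was searched on both strands. The letters GGGCGG, known as a GC box, stood in 32.7% of 32851 promoter windows of this length. The Igfbp7 window held 4 of them, which did not overlap. The bases just after the Igfbp7 window matched no GENCODE transcript of the gene, whereas those after the Igfbp3, Igfbp4 and Igfbp5 windows matched 1 each. The start used for Igfbp7 is that of RefSeq, and its distance from the GENCODE starts was not measured. The TATA box, searched with the letters TATAAA, stood in 12.4% of all windows, and the Igfbp4 window held 1. Of the letters that AP-1 factors bind, TGACTCA was searched, and 4.46% of all windows held it. For forkhead factors the letters were TGTTTAC, found in 3.17% of all windows. An E-box, searched as CACGTG, stood in 6.02% of all windows. No other match was found in the 4 windows printed here. The windows had a GC content of 73.2% (Igfbp3), 69.2% (Igfbp4), 58.8% (Igfbp5) and 74.0% (Igfbp7), against a median of 52.4% over all windows. They held 32, 22, 10 and 26 CpG pairs in that order of genes, against a median of 6. These letters are a description of the windows and show no binding.

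Library totals ranged from 22270657 to 81225627 estimated counts. Ch25h itself held 9.09 to 40.8 estimated counts per library. In CPM, a count scaled to the total of its library, it was at 1.07 and 0.918 with TEV plus reserpine, 0.311 and 0.502 with TEV, and 0.365 and 0.330 with vehicle. The sources used here do not name the deleted part of the gene. The first principal component held 61.7% of the variance over libraries and the second 22.9%. The 20 endothelial markers were all detected in every library. Of these markers 12 were called higher and 7 lower with TEV against vehicle, 8 higher and 5 lower with TEV plus reserpine against TEV, and 13 higher and 2 lower with TEV plus reserpine against vehicle. These calls made up 95%, 65% and 75% in the 3 comparisons, against 49.7%, 31.6% and 39.1% of all genes. The median log2 changes were 0.42, 0.23 and 0.69, against 0.01, 0.00 and -0.02. Their summed level was 12462 and 12042 CPM with TEV plus reserpine, 12719 and 12823 CPM with TEV and 6476 and 6425 CPM with vehicle. The sum does not follow each marker: Vwf, von Willebrand factor, was at 8.44 and 6.63 CPM with TEV plus reserpine, 5.77 and 5.88 CPM with TEV, and 51.3 and 43.4 CPM with vehicle. Kdr, the main VEGF receptor, was at 463 and 495 CPM with TEV plus reserpine, 65.3 and 105 CPM with TEV, and 343 and 306 CPM with vehicle. Fibroblast markers (15 genes) summed to 1283 and 1163 CPM with TEV plus reserpine, 795 and 908 CPM with TEV and 7672 and 6813 CPM with vehicle. Col1a2, a collagen chain of fibroblasts, was at 2.68 and 2.58 CPM with TEV plus reserpine, 1.30 and 2.16 CPM with TEV, and 1467 and 1250 CPM with vehicle. Tcf21, a fibroblast transcription factor, was at 0 in all 4 TEV-treated libraries, but only between 0.395 and 0.418 CPM with vehicle. Dpt was at 0 in both libraries with TEV plus reserpine, against 1.51 and 1.11 CPM with vehicle. Tcf21 and Dpt passed the filter only through their vehicle libraries. Thy1, of the same list, went the other way, at 409 and 375 CPM with TEV plus reserpine, 286 and 333 CPM with TEV, and 99.0 and 90.7 CPM with vehicle. A few abundant genes, Thy1 among them, held most of the fibroblast sum in the TEV-treated libraries, so the gap in that sum between the TEV-treated groups mainly reflects those genes. The 11 pericyte and smooth muscle markers summed to 948 and 874 CPM with TEV plus reserpine, 737 and 863 CPM with TEV, and 2124 and 2111 CPM with vehicle. Cspg4 was at 0 in all 4 TEV-treated libraries and between 15.3 and 17.1 CPM with vehicle, which alone carried it past the filter. The 13 macrophage and leukocyte markers in the table summed to 31.8 and 31.1 CPM with TEV plus reserpine, 22.4 and 22.3 CPM with TEV, and 55.6 and 67.7 CPM with vehicle. The 12 epithelial and mesothelial ones summed to 59.1 and 53.4 CPM with TEV plus reserpine, 56.4 and 60.9 CPM with TEV, and 41.6 and 38.0 CPM with vehicle. This sum does not follow most of its list. Of its 9 tested genes, 2 were called higher and 6 lower with TEV against vehicle, with a median log2 change of -3.79. The share called was 88.9%, against 49.7% of all genes, but 5 of the 9 passed the filter only through their vehicle libraries. The 7 lymphatic endothelial ones summed to 1356.1 and 1356.0 CPM with TEV plus reserpine, 1157 and 1191 CPM with TEV, and 1771 and 1770 CPM with vehicle. Epcam, the defining epithelial marker, was at 0 in 5 of the 6 libraries. In bulk RNA, fewer cells of a type and less RNA per cell cannot be told apart. All 6 marker sums stood apart, without overlap, between the TEV-treated libraries and vehicle, and all but the epithelial and mesothelial one also did between TEV plus reserpine and TEV. The share of all genes that stand apart in this way was not counted, so the separation is only described. The part of the marker differences in the other differences given here was not tested.

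**Figure D1:**
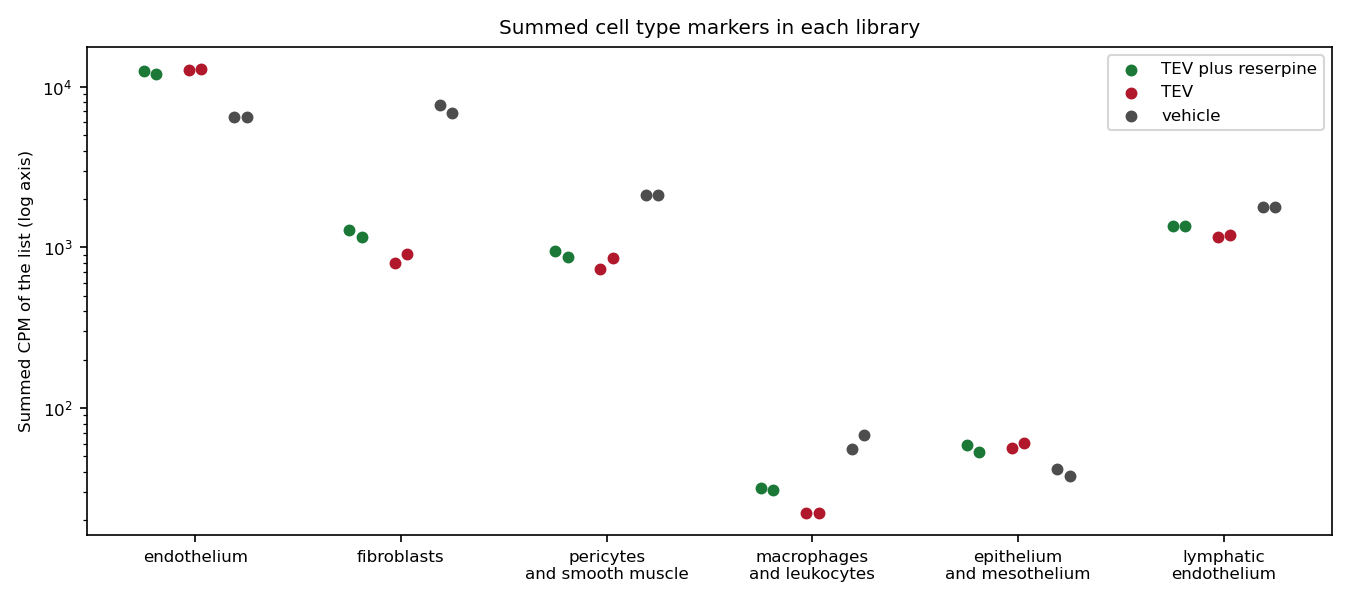
Summed CPM (log axis, library totals without scaling factors) of 6 lists of cell type markers, with 1 point per library in TEV plus reserpine (left of each trio), TEV (middle) and vehicle (right). The fibroblast sums lie between 795 and 1283 CPM in the 4 TEV-treated libraries and between 6813 and 7672 CPM with vehicle, while the endothelial sums lie between 12042 and 12823 CPM in TEV-treated libraries and at 6476 CPM or less with vehicle.

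Most of the family's genes were lower with TEV than with vehicle, and the binding proteins differed in both directions between the TEV-treated groups. Igfbp2 passed the filter only through its vehicle libraries, where it is high, so the counts and medians here are over the other 9 genes. With TEV against vehicle, 1 of the 9 genes (Igfbp7) rose, 6 fell and 2 were not called at an adjusted p under 0.05 (edgeR). Over all genes tested, 25.1% were called higher, 24.6% lower and 49.7% in either direction. The median log2 change of the 9 genes was -2.08, against 0.01 over all genes. With TEV plus reserpine against TEV, 4 rose (Igf1, Igf2, Igfbp3 and Igfbp4), 4 fell (Igf1r, Igf2r, Igfbp5 and Igfbp7) and 1 was not called, where 15.7% of all genes were called higher, 16.0% lower and 31.6% in either direction. The median log2 change was -0.46, against 0.00 over all genes. With TEV plus reserpine against vehicle, 1 rose (Igfbp3) and 8 fell, where 19.1% of all genes were called higher, 19.9% lower and 39.1% in either direction. The median log2 change was -1.39, against -0.02. Leaving out replicate 1 of TEV plus reserpine brought the number of genes called between the TEV-treated groups to 5. The comparisons share libraries: TEV enters the first as the treated group and the second as the baseline, so a low value in TEV lowers one change and raises the other. Where groups are said below not to overlap, this only describes their 2 libraries each. The share of all genes without overlap was not counted.

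**Figure D2:**
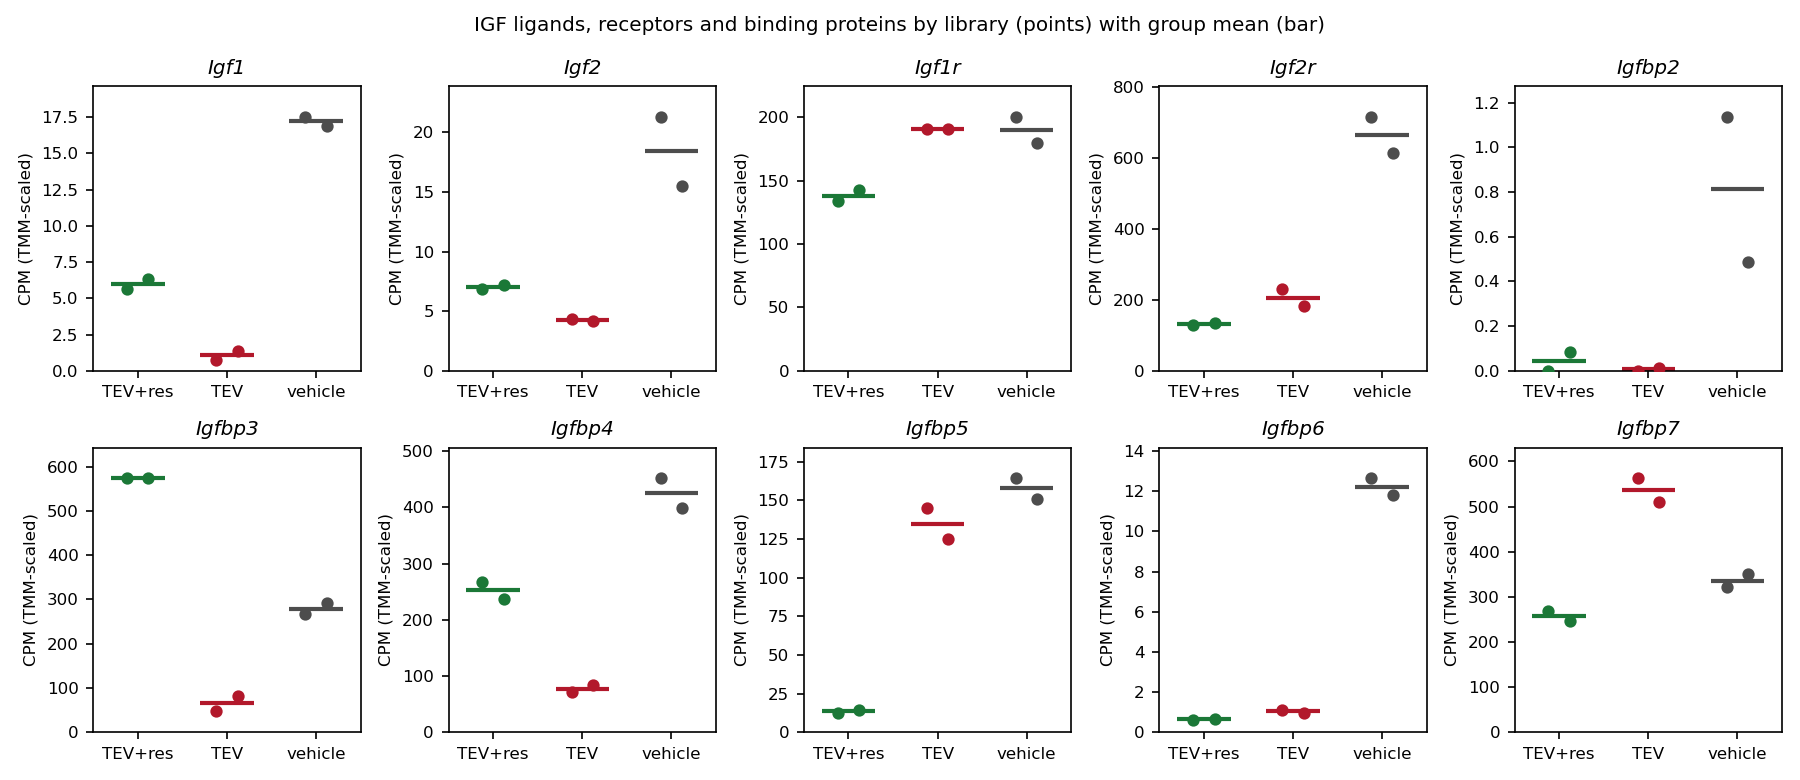
TMM-scaled CPM of the 10 genes in each library (points) with the group mean (bar) for TEV plus reserpine, TEV and vehicle from left to right. Each panel has its own linear axis from 0. Igfbp3 lies near 574 CPM in both libraries with TEV plus reserpine and at 82.2 CPM or less with TEV, whereas Igfbp5 lies at 14.5 CPM or less with TEV plus reserpine and at 125 CPM or more in the other groups.

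**Figure D3:**
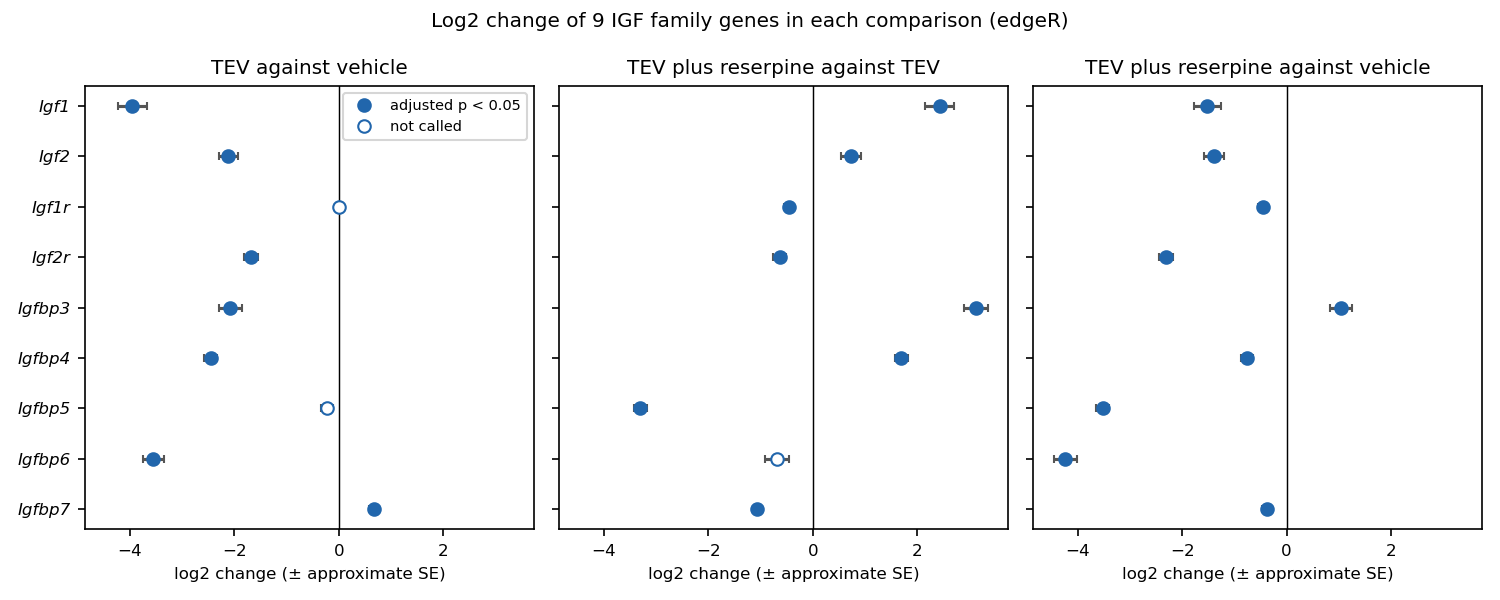
Log2 change with its approximate SE for 9 genes in the 3 comparisons, each named with the group on top of the fold change first; Igfbp2 is left out because its counts outside vehicle were 3 or fewer. Filled points were called at an adjusted p under 0.05. Igfbp3 and Igfbp5 lie at opposite ends with TEV plus reserpine against TEV, at 3.12 and -3.30.

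Both ligands were scarce in these cells and lowest with TEV. Igf1 was at 5.63 and 6.34 CPM with TEV plus reserpine, 0.750 and 1.39 CPM with TEV, and 17.5 and 16.9 CPM with vehicle. The 3 groups did not overlap, with TEV plus reserpine between the others. Igf1 fell by 3.95 on the log2 scale with TEV against vehicle (approximate SE 0.29, adjusted p = 9.1e-05). It was 2.43 higher with TEV plus reserpine than with TEV (SE 0.28, adjusted p = 0.00194) and fell by 1.52 with TEV plus reserpine against vehicle (SE 0.26, adjusted p = 0.00432). Igf2, the fetal growth factor expressed from the paternal allele, was at 6.88 and 7.21 CPM with TEV plus reserpine, 4.36 and 4.16 CPM with TEV, and 21.3 and 15.5 CPM with vehicle. Its groups had the same order without overlap, but the gap between the TEV-treated groups was smaller. Igf2 fell by 2.11 with TEV against vehicle (SE 0.19, adjusted p = 0.000226) and by 1.39 with TEV plus reserpine against vehicle (SE 0.19, adjusted p = 0.00182). It was 0.73 higher with TEV plus reserpine than with TEV (SE 0.19, adjusted p = 0.0288). That call was lost when any of the 4 libraries was left out: the adjusted p was 0.0826 and 0.107 without replicate 1 and 2 of TEV plus reserpine, and 0.0955 and 0.0851 without replicate 1 and 2 of TEV. It was also lost with limma-voom (adjusted p = 0.0538) and after thinning all libraries to the smallest total (adjusted p = 0.0733).

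The receptors behaved unlike each other. Igf1r, the signalling receptor, was at 134 and 142 CPM with TEV plus reserpine, 190.68 and 190.62 CPM with TEV, and 200.6 and 179.7 CPM with vehicle. TEV lay inside the range of vehicle, and TEV plus reserpine lay below both. Its log2 change with TEV against vehicle was 0.00 (SE 0.08, adjusted p = 0.976), and the sign of this value depended on the scaling. Igf1r fell by 0.46 with TEV plus reserpine against TEV (SE 0.08, adjusted p = 0.00898) and by 0.46 against vehicle (SE 0.08, adjusted p = 0.00601). The first call was lost without replicate 1 of TEV plus reserpine (adjusted p = 0.0519) and the second without replicate 1 of vehicle (adjusted p = 0.0521). Igf2r, the clearance receptor, was at 130 and 136 CPM with TEV plus reserpine, 229.9 and 183 CPM with TEV, and 717 and 614 CPM with vehicle. The groups did not overlap: TEV plus reserpine was the lowest, TEV lay between and vehicle was the highest. Igf2r fell by 1.69 with TEV against vehicle (SE 0.13, adjusted p = 0.000121) and by 2.32 with TEV plus reserpine against vehicle (SE 0.13, adjusted p = 7.1e-05). Its fall by 0.63 with TEV plus reserpine against TEV (SE 0.13, adjusted p = 0.0130) was lost without replicate 1 of TEV (adjusted p = 0.0509), and likewise when replicate 1 or replicate 2 of TEV plus reserpine was dropped (adjusted p = 0.0651 and 0.0553). Counts of Igf2r per count of Igf1r were 0.972 and 0.956 with TEV plus reserpine, 1.21 and 0.962 with TEV, and 3.57 and 3.42 with vehicle. This ratio overlapped between the TEV-treated groups, and both lay below vehicle.

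Igfbp3, the main carrier of IGFs in blood, held the largest rise of the family between the TEV-treated groups. It was at 574.05 and 573.98 CPM with TEV plus reserpine, 49.2 and 82.2 CPM with TEV, and 266 and 292 CPM with vehicle. The groups did not overlap: TEV was the lowest and TEV plus reserpine the highest. Igfbp3 fell by 2.08 with TEV against vehicle (SE 0.22, adjusted p = 0.000434). It was 3.12 higher on the log2 scale, or 8.71-fold, with TEV plus reserpine than with TEV (SE 0.23, adjusted p = 0.000578). It also rose by 1.04 with TEV plus reserpine against vehicle (SE 0.21, adjusted p = 0.00944), a call lost without replicate 1 of vehicle (adjusted p = 0.0528).

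Igfbp4, a binding protein that inhibits IGF action until it is cleaved by the protease PAPP-A, was at 267 and 238 CPM with TEV plus reserpine, 71.2 and 84.1 CPM with TEV, and 452 and 399 CPM with vehicle. TEV was the lowest group here too, but TEV plus reserpine stayed below vehicle. Igfbp4 fell by 2.45 with TEV against vehicle (SE 0.12, adjusted p = 2.23e-05) and by 0.75 with TEV plus reserpine against vehicle (SE 0.12, adjusted p = 0.00303). It was 1.70 higher with TEV plus reserpine than with TEV (SE 0.12, adjusted p = 0.000492).

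Igfbp5, which binds matrix and can act apart from the ligands, was lowest with TEV plus reserpine. It was at 12.8 and 14.5 CPM with TEV plus reserpine, 145 and 125 CPM with TEV, and 164 and 151 CPM with vehicle. TEV and vehicle were close, though they did not overlap, and TEV plus reserpine stood far below. The log2 change with TEV against vehicle was -0.23 (SE 0.11, adjusted p = 0.121), which did not pass the test with TMM scaling but did with library size alone (-0.35, adjusted p = 0.0254). Igfbp5 fell by 3.30 with TEV plus reserpine against TEV (SE 0.12, adjusted p = 7.26e-05) and by 3.53 with TEV plus reserpine against vehicle (SE 0.12, adjusted p = 1.04e-05).

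Igfbp7 rose with TEV alone. It was at 269 and 247 CPM with TEV plus reserpine, 563 and 509.9 CPM with TEV, and 321 and 351 CPM with vehicle. TEV was the highest group and TEV plus reserpine the lowest, with no overlap. The gene rose by 0.68 with TEV against vehicle (SE 0.09, adjusted p = 0.00116) and fell by 1.06 with TEV plus reserpine against TEV (SE 0.09, adjusted p = 0.000842). It fell by 0.38 with TEV plus reserpine against vehicle (SE 0.09, adjusted p = 0.0166), a call lost without replicate 2 of vehicle (adjusted p = 0.0961) or replicate 2 of TEV plus reserpine (adjusted p = 0.0846). Igfbp7 is itself expressed in many vessels, and the part of the endothelial marker differences in its changes was not tested.

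Igfbp6, which prefers IGF2 to IGF1, fell in both TEV-treated groups against vehicle. It was at 0.625 and 0.660 CPM with TEV plus reserpine, 1.11 and 0.980 CPM with TEV, and 12.7 and 11.8 CPM with vehicle. Both TEV-treated groups lay far below vehicle. Igfbp6 fell by 3.55 with TEV against vehicle (SE 0.21, adjusted p = 4.06e-05) and by 4.24 with TEV plus reserpine against vehicle (SE 0.22, adjusted p = 5.41e-05). Between the TEV-treated groups its change of -0.69 (SE 0.22, adjusted p = 0.0579) did not pass the test.

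Igfbp2, which is abundant in fetal tissue and in blood, was barely detected. It had 0 and 3.16 estimated counts with TEV plus reserpine, 0 and 1.06 with TEV, and 49.4 and 13.9 with vehicle. In CPM it was at 0 and 0.0861 with TEV plus reserpine, 0 and 0.0127 with TEV, and 1.14 and 0.487 with vehicle. The vehicle libraries thus also differed from each other. Since only the vehicle libraries carried it past the filter, no fold, interval or test of Igfbp2 is given.

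The make-up of the binding-protein counts differed more than their sum. The 6 Igfbp genes together held 1123 and 1074 CPM with TEV plus reserpine, 829.8 and 802.0 CPM with TEV, and 1218 and 1205 CPM with vehicle. Igfbp3 made up 51.1% and 53.5% of these counts with TEV plus reserpine, 5.93% and 10.2% with TEV, and 21.9% and 24.3% with vehicle. Igfbp7 made up 23.9% and 23.0% with TEV plus reserpine, 67.9% and 63.6% with TEV, and 26.4% and 29.1% with vehicle. In both sets of shares the groups did not overlap. Igfbp4 made up 23.8% and 22.2% with TEV plus reserpine, 8.58% and 10.5% with TEV, and 37.1% and 33.1% with vehicle. Igfbp5 made up 1.14% and 1.35% with TEV plus reserpine, 17.5% and 15.6% with TEV, and 13.5% and 12.5% with vehicle. Thus the leading gene by share was Igfbp3 with TEV plus reserpine, Igfbp7 with TEV and Igfbp4 with vehicle. Counts of Igfbp3 per count of Igfbp5 were 44.8 and 39.7 with TEV plus reserpine, 0.339 and 0.658 with TEV, and 1.62 and 1.94 with vehicle. Counts of Igfbp7 per count of Igfbp3 were 0.468 and 0.430 with TEV plus reserpine, 11.4 and 6.21 with TEV, and 1.21 and 1.20 with vehicle. Shares and ratios of counts depend on transcript length, and whether isoform use differed between the groups was not tested. No test was run on them.

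**Figure D4:**
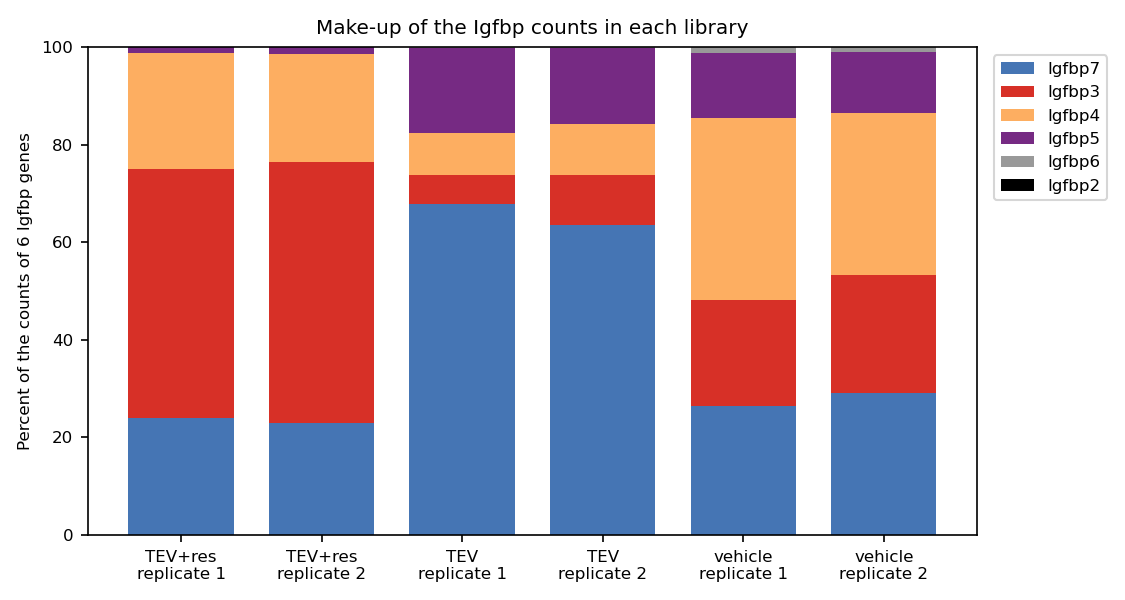
Percent of the counts of 6 Igfbp genes held by each gene in each library, stacked to 100, with TEV plus reserpine, TEV and vehicle from left to right. Igfbp7 fills 67.9% and 63.6% of the bar with TEV, and Igfbp3 fills 51.1% and 53.5% with TEV plus reserpine.

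Levels of different genes were compared per kilobase of transcript, with the longest and the shortest protein-coding transcript of the GENCODE basic set, because the files do not say which isoform was present. With TEV plus reserpine, the group mean of Igfbp3 was 237 CPM per kilobase with the longest transcript and 336 with the shortest, Igfbp7 215 and 231, and Igfbp4 65.9 and 340. With TEV, Igfbp7 was the highest of the 10 genes with either transcript, at 447 and 481 CPM per kilobase, while Igfbp3 was at 27.1 and 38.4, and Igfbp4 at 20.3 and 105. With vehicle, Igfbp7 was at 280 and 301, Igfbp3 at 115 and 163, and Igfbp4 at 111 and 573 CPM per kilobase. The order of Igfbp3, Igfbp4 and Igfbp7 therefore depended on the transcript in all 3 groups. Igf2r, with 1 transcript, was at 15.0, 23.3 and 74.9 CPM per kilobase in TEV plus reserpine, TEV and vehicle, and Igf1r at 12.1, 16.7 and 16.7. Igfbp5 was at 2.27, 22.5 and 26.3 CPM per kilobase and Igfbp6 at 0.578, 0.940 and 11.0 in the same order of groups. Igf1 and Igf2 were at or under 28.3 CPM per kilobase in every group with either transcript, and Igfbp2 was under 1.

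By the distance between mean-centred log2 CPM over the 6 libraries, the nearest members were Igf1r and Igfbp7 (distance 0.781) and then Igf2 and Igfbp4 (1.05). The furthest apart were Igfbp3 and Igfbp5 (6.69). This distance also follows the size of the changes, so genes that changed little lie close together even where their patterns differ. With TEV against vehicle the log2 change of Igf1r was 0.00 and that of Igfbp7 was 0.68. Among 10430 genes that averaged 5 CPM or more, the nearest to Igf1 was Gpihbp1 (0.353), which anchors lipoprotein lipase on capillary endothelium, at 6.48 and 6.03 CPM with TEV plus reserpine, 0.777 and 1.17 CPM with TEV, and 16.5 and 14.9 CPM with vehicle. The nearest to Igf2 was Eml1 (0.193), to Igfbp4 the G-protein regulator Rgs2 (0.243) and to Igf2r the water channel Aqp1 (0.240). The nearest to Igfbp3 were C130074G19Rik (0.4496) and A4galt (0.477), the synthase of globotriaosylceramide. Igfbp5 had no neighbour as close: its nearest was Snai2 (0.709), a transcriptional repressor of the Snail family, at 3.62 and 3.76 CPM with TEV plus reserpine, 29.3 and 19.9 CPM with TEV, and 41.5 and 29.3 CPM with vehicle. The next for Igfbp5 was Havcr2 (1.18). The nearest to Igfbp6 was Vegfa (0.322), the vascular growth factor, at 8.80 and 7.55 CPM with TEV plus reserpine, 16.2 and 13.4 CPM with TEV, and 151 and 161 CPM with vehicle. Those to Igfbp7 were Sepw1 (0.0828) and Efna4 (0.105), that to Igf1r was Ppip5k1 (0.0796), and that to Igfbp2 was Prkg2 (1.03). These distances describe 6 libraries in 3 groups and carry no test.

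Genes that control the binding proteins were counted next. Of 16 tested genes for proteases that act on binding proteins, their inhibitors and IGF processing, 3 rose and 9 fell with TEV against vehicle. Between the TEV-treated groups 6 rose and 4 fell, and with TEV plus reserpine against vehicle 1 rose and 6 fell; the single rise was lost without replicate 2 of vehicle or replicate 1 of TEV plus reserpine, and there were 2 rises with DESeq2, with no filter, with the 4 libraries alone or without either library of TEV. In all, the calls made up 75.0%, 62.5% and 43.8% in the 3 comparisons, against 49.7%, 31.6% and 39.1% of all genes, and the median log2 changes were -0.69, 0.14 and -0.44, against 0.01, 0.00 and -0.02. Pappa, which encodes PAPP-A, was at 0.715 and 1.44 CPM with TEV plus reserpine, 0.250 and 0.433 CPM with TEV, and 85.7 and 63.6 CPM with vehicle. It fell by 7.65 with TEV against vehicle (SE 0.35, adjusted p = 1.59e-05), and it fell by 6.04 with TEV plus reserpine against vehicle (SE 0.32, adjusted p = 5.41e-05). Its libraries did not overlap between the TEV-treated groups, but the change of 1.61 (adjusted p = 0.0301) was lost without replicate 1 of TEV (adjusted p = 0.113), replicate 2 of TEV (0.0521) or replicate 2 of TEV plus reserpine (0.259), and with limma-voom (0.135), the replicate block (0.0511), the 4 libraries alone (0.0601) or thinned counts (0.065). Stc1, a stanniocalcin and an inhibitor of PAPP-A, was at 51.2 and 49.9 CPM with TEV plus reserpine, 1392 and 822 CPM with TEV, and 53.8 and 60.6 CPM with vehicle. TEV stood apart from both other groups: Stc1 rose by 4.28 with TEV against vehicle (adjusted p = 4.37e-05) and fell by 4.45 with TEV plus reserpine against TEV (adjusted p = 0.0003). Stc2, the related stanniocalcin, did not share that pattern, at 5.54 and 4.45 CPM with TEV plus reserpine, 8.55 and 8.70 CPM with TEV, and 16.7 and 13.4 CPM with vehicle, and it fell by 1.60 with TEV plus reserpine against vehicle (adjusted p = 0.00096).

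The plasminogen activators, which start a protease cascade that can cleave binding proteins, moved apart. Plat, the tissue activator, was at 153 and 148 CPM with TEV plus reserpine, 2245 and 1568 CPM with TEV, and 173 and 183 CPM with vehicle. It rose by 3.42 with TEV against vehicle (adjusted p = 2.37e-05) and fell by 3.66 with TEV plus reserpine against TEV (adjusted p = 0.00022). Plau, the urokinase activator, was at 1467 and 1451 CPM with TEV plus reserpine, 239 and 393 CPM with TEV, and 1019 and 1084 CPM with vehicle. It fell by 1.73 with TEV against vehicle (adjusted p = 0.000766) and was 2.20 higher with TEV plus reserpine than with TEV (adjusted p = 0.00115). Adam12, a metalloprotease that cleaves IGFBP3 and IGFBP5, was at 26.04 and 24.5 CPM with TEV plus reserpine, 6.36 and 6.90 CPM with TEV, and 67.0 and 54.4 CPM with vehicle. It fell by 3.19 with TEV against vehicle (adjusted p = 1.43e-05) and was 1.92 higher with TEV plus reserpine than with TEV (adjusted p = 0.000516).

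Of 14 tested genes for partners of the binding proteins at the cell surface and in the matrix, 3 rose and 6 fell with TEV against vehicle, 4 rose and 2 fell with TEV plus reserpine against TEV, and 6 rose and 6 fell with TEV plus reserpine against vehicle. Without replicate 1 of TEV or replicate 1 of TEV plus reserpine, the second pair of counts was 2 and 1, and without replicate 2 of TEV plus reserpine the number that fell was 1. The called share of these partners was 64.3%, 42.9% and 85.7% in the 3 comparisons, against 49.7%, 31.6% and 39.1% of all genes, and the median log2 changes were -0.25, 0.17 and -0.12, against 0.01, 0.00 and -0.02. Cd93, an endothelial receptor that binds IGFBP7, was at 991 and 1097 CPM with TEV plus reserpine, 428 and 584 CPM with TEV, and 549 and 554 CPM with vehicle. Cd93 was 0.92 higher with TEV plus reserpine than with vehicle (adjusted p = 0.00331) and 1.04 higher than with TEV (adjusted p = 0.0036). The change of -0.12 with TEV against vehicle did not pass the test (adjusted p = 0.504), but it did without replicate 2 of TEV (-0.365, adjusted p = 0.0265). Mmrn2, a matrix ligand of CD93, was 0.70 higher with TEV plus reserpine than with TEV (adjusted p = 0.00345). Lrp1, the endocytic receptor that binds IGFBP3 in other cell types, was at 39.1 and 20.2 CPM with TEV plus reserpine, 25.1 and 22.3 CPM with TEV, and 1542 and 1378 CPM with vehicle. It fell by 5.95 with TEV against vehicle (adjusted p = 2.96e-05) and by 5.64 with TEV plus reserpine against vehicle (adjusted p = 6.6e-05), in parallel with the fibroblast marker sum, whose part was not tested. Spp1, or osteopontin, a matrix protein that binds IGFBP5, fell by 5.17 with TEV against vehicle (adjusted p = 2.18e-06).

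**Figure D5:**
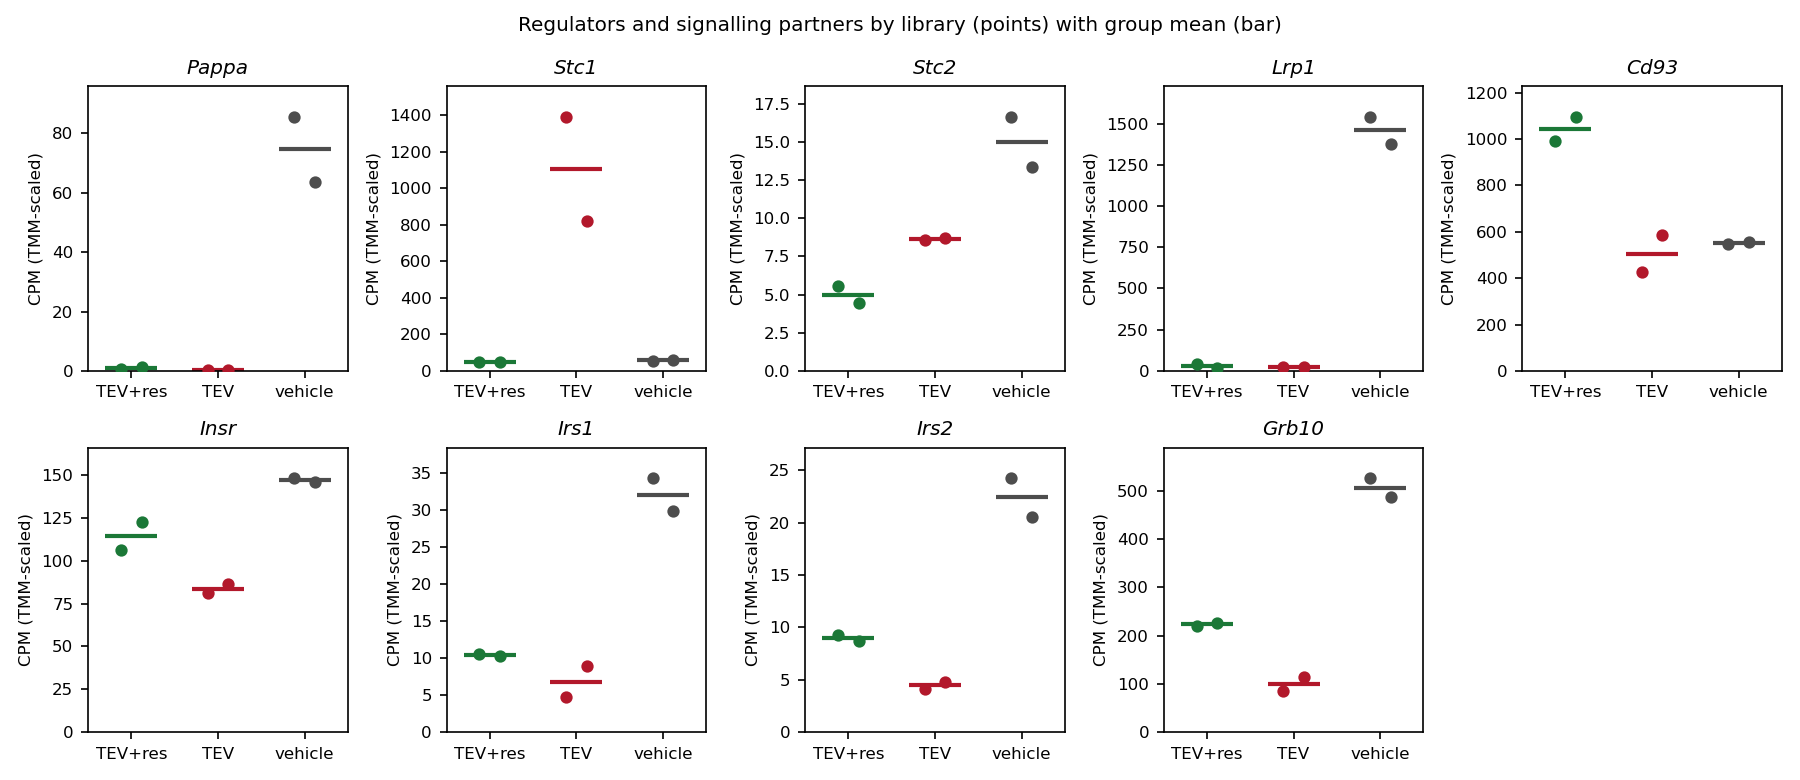
TMM-scaled CPM of 9 genes that regulate or relay IGF signals in each library (points) with the group mean (bar) for TEV plus reserpine, TEV and vehicle from left to right, each panel with its own linear axis from 0. Stc1 is high only with TEV, at 1392 and 822 CPM, and Cd93 is highest with TEV plus reserpine, at 991 and 1097 CPM.

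Of 38 tested genes of IGF and insulin receptor signalling, 7 rose and 13 fell with TEV against vehicle, 7 rose and 8 fell with TEV plus reserpine against TEV, and 3 rose and 16 fell with TEV plus reserpine against vehicle. Leaving out 1 library brought the first count of rises as low as 2 (without replicate 1 or 2 of vehicle), with 3 without replicate 1 of TEV and 4 without replicate 2 of TEV plus reserpine. The same count was 2 with library size alone and 3 with upper quartile scaling, the replicate block or the 4 libraries alone. Leaving out 1 library brought the second pair as low as 4 and 3: 4 rises and 4 falls without replicate 1 of TEV, and 3 falls without replicate 1 or 2 of TEV plus reserpine. In the third comparison 7 fell without replicate 1 of vehicle, 9 without replicate 2 of vehicle and 8 without replicate 1 of TEV plus reserpine, and 1 rose without replicate 1 or 2 of vehicle or replicate 2 of TEV plus reserpine. The share of signalling genes called was 52.6%, 39.5% and 50% in the 3 comparisons, against 49.7%, 31.6% and 39.1% of all genes, and the median log2 changes were -0.03, -0.10 and -0.33, against 0.01, 0.00 and -0.02. Insr, the insulin receptor, which also forms hybrids with IGF1R, was at 106 and 122 CPM with TEV plus reserpine, 81.2 and 86.2 CPM with TEV, and 148 and 146 CPM with vehicle. The groups did not overlap, and Insr fell by 0.81 with TEV against vehicle (adjusted p = 0.000594). Irs1, the first receptor substrate, was at 10.6 and 10.3 CPM with TEV plus reserpine, 4.72 and 8.98 CPM with TEV, and 34.3 and 29.8 CPM with vehicle, and it fell by 2.21 with TEV against vehicle (adjusted p = 0.000914). Irs2, the related substrate, was at 9.29 and 8.67 CPM with TEV plus reserpine, 4.11 and 4.84 CPM with TEV, and 24.2 and 20.6 CPM with vehicle. It fell by 2.32 with TEV against vehicle (adjusted p = 7.62e-05) and was 1.00 higher with TEV plus reserpine than with TEV (adjusted p = 0.00601). Grb10, an adaptor that inhibits both receptors, was at 221 and 226 CPM with TEV plus reserpine, 84.9 and 115 CPM with TEV, and 526 and 487 CPM with vehicle. It fell by 2.34 with TEV against vehicle (adjusted p = 5.27e-05), so both substrates and the inhibitor were lowest with TEV. For Irs1, however, the difference between the TEV-treated groups was not called with all libraries. Akt1, the kinase downstream, was at 545 and 481 CPM with TEV plus reserpine, 559 and 546 CPM with TEV, and 485 and 480 CPM with vehicle, and no change of it passed the test (adjusted p = 0.0894, 0.357 and 0.43 in the 3 comparisons).

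AKT holds FOXO transcription factors out of the nucleus, and 22 of their known target genes were tested. With TEV against vehicle 8 rose and 10 fell, with TEV plus reserpine against TEV 8 rose and 7 fell, and with TEV plus reserpine against vehicle 4 rose and 7 fell. The last count of falls was 4 without replicate 2 of vehicle or replicate 1 of TEV plus reserpine. Of the targets, the share called was 81.8%, 68.2% and 50% in the 3 comparisons, against 49.7%, 31.6% and 39.1% of all genes, and the median log2 changes were -0.27, 0.10 and -0.11, against 0.01, 0.00 and -0.02. Foxo1 itself was at 73.6 and 76.7 CPM with TEV plus reserpine, 29.0 and 40.5 CPM with TEV, and 52.6 and 50.4 CPM with vehicle, and it was 1.11 higher with TEV plus reserpine than with TEV (adjusted p = 0.00372). Angpt2, a TIE2 ligand of activated endothelium, was at 1211 and 1197 CPM with TEV plus reserpine, 2309 and 2109 CPM with TEV, and 298 and 333 CPM with vehicle. It rose by 2.81 with TEV against vehicle (adjusted p = 4.93e-06). Bcl6, a transcriptional repressor, was at 17.6 and 17.3 CPM with TEV plus reserpine, 175 and 127 CPM with TEV, and 25.2 and 24.9 CPM with vehicle, and it rose by 2.59 with TEV against vehicle (adjusted p = 4.67e-05). The targets thus moved in both directions in each comparison.

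Of 12 tested relatives that carry an IGFBP-type domain, 5 rose and 5 fell with TEV against vehicle, 1 rose and 4 fell with TEV plus reserpine against TEV, and 6 rose and 4 fell with TEV plus reserpine against vehicle. The 5 falls were 3 without replicate 1 of vehicle. The 4 falls between the TEV-treated groups were 2 or 1 when any 1 library was left out, and the 1 rise was 2 without replicate 2 of TEV. With library size alone, upper quartile scaling or the replicate block those 4 falls were 1, and the 1 rise was 2 with library size alone, DESeq2, no filter or thinned counts. The share of the relatives called was 83.3%, 41.7% and 83.3% in the 3 comparisons, against 49.7%, 31.6% and 39.1% of all genes, and the median log2 changes were -0.53, 0.24 and 0.27, against 0.01, 0.00 and -0.02. Esm1, or endocan, a proteoglycan of endothelial tip cells, was at 434 and 446 CPM with TEV plus reserpine, 502 and 581 CPM with TEV, and 28.1 and 28.0 CPM with vehicle. It rose by 4.27 with TEV against vehicle (adjusted p = 2.18e-06) and by 3.97 with TEV plus reserpine against vehicle (adjusted p = 3.55e-06). Wisp2, a member of the CCN family, was at 0.402 and 0.258 CPM with TEV plus reserpine, 0.194 and 0.204 CPM with TEV, and 13.8 and 15.4 CPM with vehicle. Only its vehicle libraries carried it past the filter, so its place among the falls counted here lends no support and no test of it is given. Nov, another member, rose by 1.37 with TEV against vehicle (adjusted p = 0.000117) and fell by 0.95 with TEV plus reserpine against TEV (adjusted p = 0.00173).

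Genes next to Igf2 and Igf2r in function were also counted. Of 7 tested genes that add mannose 6-phosphate or sort its carriers, 2 rose and 4 fell with TEV against vehicle, 2 rose and 0 fell with TEV plus reserpine against TEV, and 2 rose and 1 fell with TEV plus reserpine against vehicle. Leaving out 1 library changed these small counts: the 4 falls were 2 without replicate 1 or 2 of vehicle and 1 without replicate 1 of TEV, the 2 rises between the TEV-treated groups were 1 without replicate 1 of TEV, and the last counts were 1 and 0 without replicate 1 of vehicle or replicate 2 of TEV plus reserpine and 1 rise without replicate 1 of TEV plus reserpine. The share called was 85.7%, 28.6% and 42.9% in the 3 comparisons, against 49.7%, 31.6% and 39.1% of all genes, and the median log2 changes were -0.45, 0.30 and -0.09, against 0.01, 0.00 and -0.02. M6pr, the smaller mannose 6-phosphate receptor, was at 235 and 243 CPM with TEV plus reserpine, 252 and 246 CPM with TEV, and 168 and 183 CPM with vehicle. It rose by 0.50 with TEV against vehicle (adjusted p = 0.00201) while Igf2r fell. Gga2, an adaptor that sorts both receptors, fell by 1.501 with TEV against vehicle (adjusted p = 0.000136). Of 3 genes for IGF2 mRNA-binding proteins, 2 fell with TEV against vehicle, 0 were called with TEV plus reserpine against TEV and 2 fell with TEV plus reserpine against vehicle, with median log2 changes of -0.84, 0.04 and -0.80. Igf2bp3 was at 2.59 and 2.53 CPM with TEV plus reserpine, 2.08 and 2.13 CPM with TEV, and 18.3 and 16.3 CPM with vehicle, and it fell by 3.04 with TEV against vehicle (adjusted p = 3.27e-05).

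Of 11 tested imprinted growth genes, which are expressed from 1 parental allele as Igf2 is, 3 rose and 6 fell with TEV against vehicle. With TEV plus reserpine against TEV 4 rose and 2 fell, and with TEV plus reserpine against vehicle 3 rose and 4 fell. The first count of rises was 1 without replicate 2 of vehicle, and the 2 falls between the TEV-treated groups were 0 without replicate 1 of TEV and 1 without any other of those libraries. With library size alone the first count of rises was also 1. Dlk1, which is counted among the tested genes, passed the filter only through its vehicle libraries. Calls among the imprinted genes made up 81.8%, 54.5% and 63.6% in the 3 comparisons, against 49.7%, 31.6% and 39.1% of all genes, and the median log2 changes were -0.88, 0.36 and -0.09, against 0.01, 0.00 and -0.02. Mest was at 630 and 665 CPM with TEV plus reserpine, 133 and 175 CPM with TEV, and 390 and 334 CPM with vehicle. Like Igfbp3, it was lowest with TEV and highest with TEV plus reserpine: it fell by 1.23 with TEV against vehicle (adjusted p = 0.000663) and was 2.07 higher with TEV plus reserpine than with TEV (adjusted p = 0.00053). Peg3 was 1.26 higher with TEV plus reserpine than with TEV (adjusted p = 0.00382). H19, the noncoding neighbour of Igf2, was not analysed here.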

How the data were processed

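RNA was measured in 6 libraries of cultured lung endothelial cells. Per the labels' protocols, a TruSeq kit was used on polyA RNA and reads were single-end. The sources used here do not give the strand, so overlapping or antisense genes cannot be told apart. The authors deposited estimated counts for each symbol, and 61.2% of the values have decimals. Per the submitters' processing notes, kallisto 0.45.0, R 4.0.0, edgeR and limma were used and the build was GRCh38, a human build, although the table lists mouse symbols. A second deposited table, filtered by the authors, was not used here.

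Estimated counts were rounded, filtered with filterByExpr and scaled by TMM. CPM of single genes used TMM-scaled library sizes, while marker sums and Ch25h used plain totals. The 3 comparisons were taken from 1 quasi-likelihood fit in edgeR to all 6 libraries, which left 3 residual degrees of freedom and had no replicate block. Benjamini-Hochberg adjustment ran over the 15035 genes of each comparison, and "called" means an adjusted p under 0.05. The approximate SE is the log2 change divided by the square root of the F statistic. Versions were edgeR 4.0.16 in R 4.3.3, with DESeq2 1.42.0 and limma 3.58.1 for alternatives, and the test was checked on simulated data. Alternatives were other scalings, filters and tools, a replicate block, fewer libraries and thinned counts.

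The members and all lists were chosen with earlier results of these data known. All 10 members are named. From each list, named genes are drawn from up to 4 called genes with the largest change among those that averaged 5 CPM or more, and up to 2 uncalled genes, in any comparison. Insr, Irs1, Irs2, Pappa, Stc2, Cd93 and Lrp1 are named by the rule itself. Which of the permitted genes to name was chosen after their values were seen. Tcf21, Dpt, Cspg4 and Epcam (at 0), Thy1 and Dlk1 are outside that rule and were chosen after their values were seen. Sequences are from RefSeq, whose promoter table (GRCm38.p6) held all 10 members.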

Additional observations from a re-analysis of the deposited data

How the results depend on the processing

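For the 9 members with a fitted change, 405 values were recomputed (27 results under 15 settings): 383 kept direction and side of the threshold, 14 lost the call, 1 gained it and 7 changed sign. All 7 changes of sign were those of Igf1r with TEV against vehicle, which was not called: -0.12 with library size alone, -0.0543 with upper quartile scaling, -0.0116 with DESeq2, -0.0037 when genes had to exceed 1 CPM in 2 or more libraries, -0.0225 with only the 4 libraries of the comparison, and -0.0192 after thinning. Leaving out 1 library gave it values between -0.0757 and 0.0864. No called value of a member changed sign.

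Leaving out 1 library gave between 2124 and 4315 genes called with TEV plus reserpine against TEV (4757 with all libraries), and between 3572 and 5950 with TEV plus reserpine against vehicle (5873 with all). The family counts were between 5 and 8 of 10 with TEV plus reserpine against TEV. Under the 1 CPM filter, Igfbp2 was not tested, and the family counts were 7, 8 and 9. With library size alone, 39.8% of the calls with TEV against vehicle were higher, against 50.5% with TMM, and the median over all genes was -0.11 in place of 0.01; with TEV plus reserpine against TEV the share was 59.4% against 49.5%. The title replicate number as replicate block gave 6864, 3840 and 5094 genes called and 8, 8 and 10 family genes. Those family counts are over all 10 genes and include Igfbp2 in both comparisons with vehicle. Only its vehicle libraries carried Igfbp2 past that filter, so its place in the counts lends no support. Libraries with the same title number did not deviate together (correlations of -0.0418, 0.0237 and 0.0189), so the title numbers were not taken as pairs. Replicate numbers here are those of the titles. The deposited column names number the TEV-treated libraries differently from their titles. A pairing of vehicle with TEV-treated libraries by column number was not tested.

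Over the 29 other named genes, 1304 values were recomputed: 49 lost a call, 17 gained one and 5 changed sign, none of them called. These were Mmrn2 with TEV against vehicle (-0.018 with library size alone, and between -0.0109 and 0.233 when 1 library was left out), Cd93 with TEV against vehicle (between -0.365 and 0.102 when 1 library was left out), M6pr with TEV plus reserpine against TEV (0.0224 with library size alone) and Lrp1 with TEV plus reserpine against TEV (between -0.220 and 0.728 when 1 library was left out). Of 1260 recomputed list counts, 1158 were within 1.5 times the main count. Depth limits Igfbp2, and thinning to the smallest total ended the call of Igf2 between the TEV-treated groups.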
